A study of Mus musculus with 10 samples.

Results

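The endoplasmic reticulum (ER) chaperones and the genes of the unfolded protein response were followed here as a named set of 34 genes. They were chosen by gene symbol, with earlier results of these data known. The set holds folding helpers of the ER lumen, the sensors that detect unfolded proteins, the machinery that removes misfolded proteins and parts of the channel that brings new proteins in. All 34 symbols were found among the 38215 genes of the deposited table, and all 34 had enough counts to be tested, as had 13966 genes in all. One of them, Mzb1, is listed under its older name 2010001M09Rik.

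RNA was sequenced from an acute myeloid leukaemia (AML) of mice. Lineage-depleted bone marrow cells had received a retrovirus (MSCV-IRES-GFP) carrying AML1-ETO, a leukaemic fusion of 2 transcription factor genes, and the mutant oncogene NrasG12D, and the cells were first grown into leukaemia in Rag2-/-γc-/- hosts. Such hosts have no T, B or NK lymphocytes. GFP+ spleen cells of these leukaemias were then given to secondary recipients of either kind, immunocompetent C57BL/6J mice or Rag2-/-γc-/- mice, and GFP+ spleen cells were collected again once AML had developed. The comparison asks how growth under an intact immune system (immunoediting) bears on the transcripts of the leukaemia.

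Both groups therefore share the oncogenes, the viral vector, a first passage through immunodeficient mice and the GFP gate, and differ in the strain of the secondary recipient. There were 5 C57BL/6J libraries, numbered 1, 3, 4, 5 and 6, and 5 Rag2-/-γc-/- libraries, numbered 7 to 11. The labels give neither age nor sex nor batch, and they do not say how many primary leukaemias supplied the recipients, so p-values cover the spread between recipients only. These were bulk RNA samples, in which fewer cells of a type and less RNA per cell cannot be told apart.

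Proteins destined for secretion, for the cell surface or for lysosomes enter the ER through the Sec61 channel and fold there with the help of chaperones. The Hsp70 protein BiP (Hspa5) and the Hsp90 protein Grp94 (Hsp90b1) hold unfolded chains, calreticulin and calnexin hold chains by their sugars, and protein disulfide isomerases form and reshuffle disulfide bonds. When unfolded proteins build up, the sensors IRE1 (Ern1), PERK (Eif2ak3) and ATF6 slow translation and switch on chaperone genes, partly through the transcription factor XBP1. What cannot be folded is moved back to the cytosol and degraded, which is called ER-associated degradation (ERAD).

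The DNA element that couples many of these genes to ATF6 and XBP1 is the ER stress response element, ERSE. It is spelled CCAAT, then 9 bases of any kind, then CCACG, and a shorter form, ERSE-II, is spelled ATTGG, 1 base of any kind, then CCACG. Promoters of 300 bases (250 before and 50 after the annotated start, RefSeq, GRCm38.p6) were held for 28 of the 34 genes and were searched on both strands. Counted by gene, the ERSE was found in 9 of these 28 (32.1%) and in 37 of the 27025 genes of the promoter table (0.137%). ERSE-II was found in 2 (7.14%) and 12 (0.0444%). The letters TGACGTGG, the core of a further element (UPRE), were in none of the 28 and in 193 genes (0.714%). ERSE couples many of the chosen genes to ATF6 and XBP1, so its high share among them is tied to how they were chosen. The sites are printed 5′ to 3′ on the strand of the gene, with 15 bases on each side and the motif in capitals. A reverse-strand site begins with CGTGG and ends with ATTGG.
Hspa5, chr2:34772010-34772058, plus strand: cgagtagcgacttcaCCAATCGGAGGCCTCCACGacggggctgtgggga
Dnajc3, chr14:118937812-118937860, plus strand: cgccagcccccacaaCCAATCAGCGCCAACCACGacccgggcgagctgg
Hsp90b1, site 1, chr10:86705623-86705671, minus strand: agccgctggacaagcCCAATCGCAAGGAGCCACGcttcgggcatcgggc
Hsp90b1, site 2, chr10:86705518-86705566, minus strand: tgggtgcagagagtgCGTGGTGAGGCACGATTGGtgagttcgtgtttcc
Creld2, chr15:88819505-88819553, plus strand: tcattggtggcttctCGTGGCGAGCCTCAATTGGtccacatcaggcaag
Calr, chr8:84847060-84847108, minus strand: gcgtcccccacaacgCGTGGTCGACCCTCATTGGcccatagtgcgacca
Canx, chr11:50325785-50325833, minus strand: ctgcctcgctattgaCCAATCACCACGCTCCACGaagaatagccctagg
Pdia6, chr12:17266476-17266524, plus strand: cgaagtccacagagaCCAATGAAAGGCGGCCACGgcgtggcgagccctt
Syvn1, chr19:6046517-6046565, plus strand: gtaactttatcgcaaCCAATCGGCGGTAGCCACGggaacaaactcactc
Derl3, chr10:75893227-75893275, plus strand: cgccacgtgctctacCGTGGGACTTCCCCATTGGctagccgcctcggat
Herpud1 (ERSE-II), chr8:94386362-94386402, plus strand: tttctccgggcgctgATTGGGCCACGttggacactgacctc

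In all of these the motif lies before the start that RefSeq annotates, from 25 bases away in Syvn1 to 193 bases in Hsp90b1, where a second site stands 88 bases away. The Hspa5 site lies inside the bounds of the gene as the deposited table gives them, which begin further upstream than the RefSeq start. Dnajb11 holds an ERSE-II just after its start. Hyou1, Manf, Mzb1, Atf6, Derl1 and Sec61a1 had no promoter in the table. A match of letters is a description and not evidence of binding.

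The libraries differed within each group, and this bears on most results below. Library totals of expected counts were between 32703932 and 44097690 for C57BL/6J and between 28157745 and 62461126 for Rag2-/-γc-/- recipients, and the 34 genes took 0.936 to 1.33% of a library's counts. On the first principal component of all tested genes, with 46.4% of the variance, Rag2-/-γc-/- libraries 7, 8 and 9 scored 49.6 to 61.6, libraries 10 and 11 -4.9 and 8.7, and the C57BL/6J libraries -57.5 to -20.2. C57BL/6J library 1 stood apart by a low mitochondrial share (1.34%, against 2.91 to 4% in the other 9 libraries) and by summed T cell markers of 61.3 CPM (counts scaled to a common library size, with TMM factors), against 3.31 to 18.6 CPM elsewhere. Myeloid genes such as Spi1 (listed as Sfpi1) and Itgam were present throughout: 12 of them summed to 2068 to 3543 CPM, and 1 was called higher and 4 lower. The 11 conventional dendritic cell markers, all over 10 CPM on average, summed to 7511 to 9972 CPM in C57BL/6J and 4825 to 7315 CPM in Rag2-/-γc-/- libraries, without overlap. Granulocyte markers summed to 4.21 to 33.7 CPM in C57BL/6J and 6.04 to 35.1 CPM in Rag2-/-γc-/- libraries. Erythroid markers summed to 15.2 to 147 CPM and 75.3 to 244 CPM (medians 28.7 and 173 CPM). NK cell markers summed to 18.5 to 23.6 CPM and 8.59 to 21.2 CPM, of which Klrd1 alone made up 13.6 to 21.5 CPM and 7.78 to 18.6 CPM. Macrophage markers summed to 1565 to 2420 CPM, of which Axl alone made up 1339 to 2270 CPM. Stromal and endothelial markers were under 1 CPM on average in 10 of 11 genes, and the other, Pecam1, was at 1.31 to 7.39 CPM in C57BL/6J and 24.1 to 33.2 CPM in Rag2-/-γc-/- libraries.

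Of the 34 genes, Mzb1 alone rose in leukaemia from C57BL/6J recipients and none fell (edgeR; p under 0.05 after Benjamini-Hochberg adjustment over all 13966 genes). The background was 464 genes higher (3.32%) and 624 lower (4.47%), so 1 and 0 calls among 34 genes are near or under what the table gives for any gene. At an unadjusted p under 0.05 there were 7 genes on the higher and 3 on the lower side, where 11.5% and 14.1% of all tested genes lay. The median log2 fold change (C57BL/6J minus Rag2-/-γc-/-) of the 34 genes was 0.18, and that of all tested genes 0.004. The fold change was positive for 21 genes and negative for 13, beside 7047 and 6919 of all tested genes. All 15 chaperones and disulfide isomerases were positive. Negative were 3 of the 4 sensors and regulators, 5 of the 8 ERAD genes and 5 of the 7 translocation genes. Among 47 other ER folding enzymes 22 were positive and 25 negative. Outside the ER, 24 of 32 cytosolic heat shock genes and 9 of 12 mitochondrial chaperones were positive. Each of these counts describes fitted values, most of them not past the test.

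**Figure D1:**
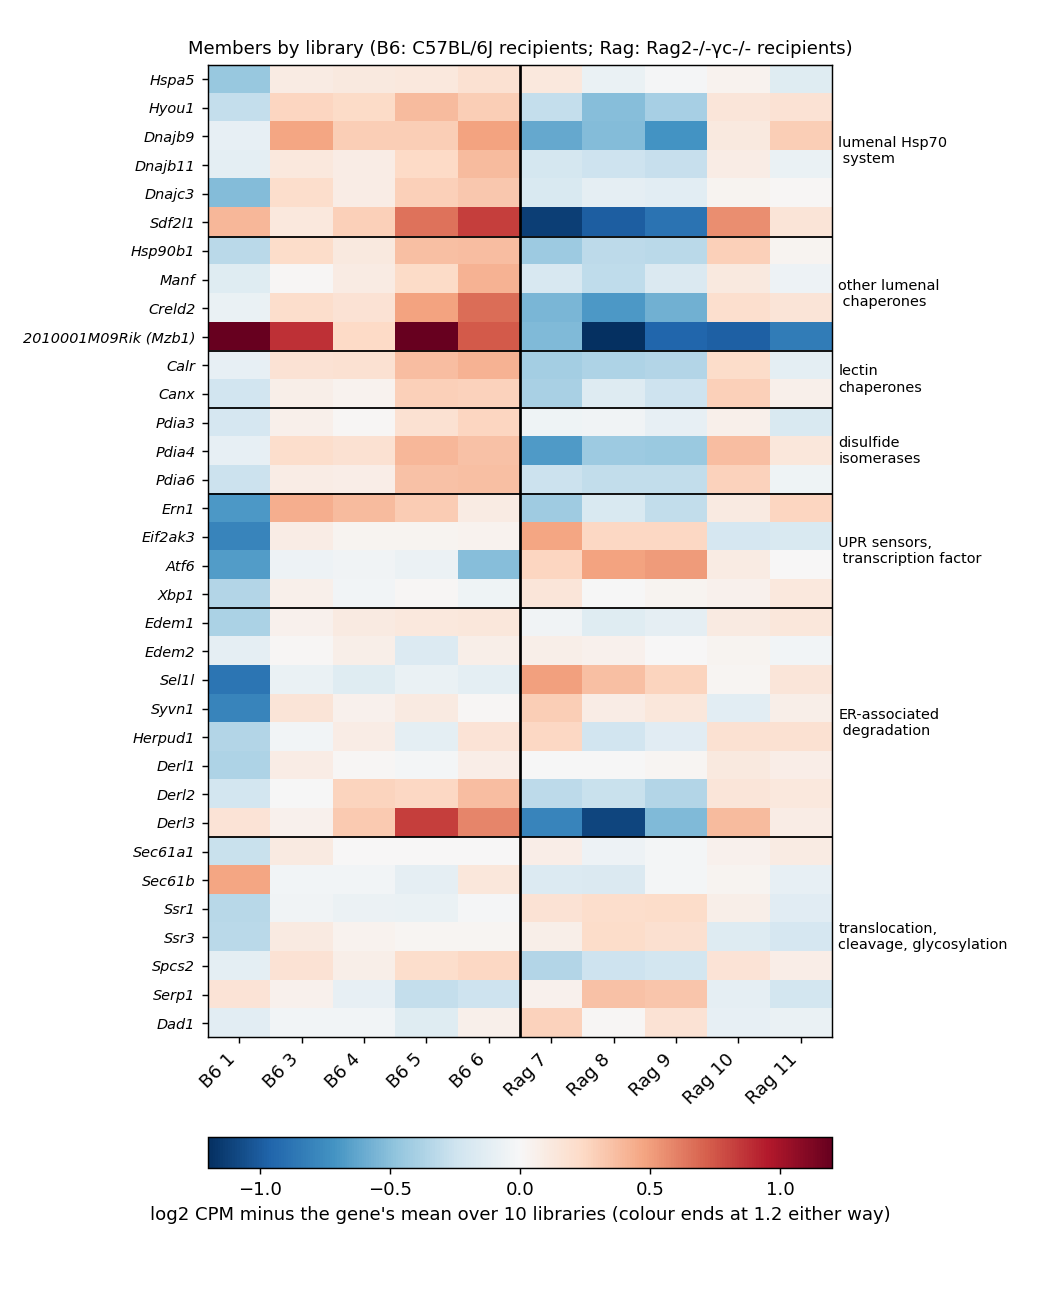
Expression of the 34 genes by library, as log2 CPM minus the gene's mean over the 10 libraries, with genes grouped by role from top to bottom and libraries from left to right (B6: C57BL/6J; Rag: Rag2-/-γc-/-). Red is above and blue below the gene's mean. Most chaperones are blue in Rag libraries 7, 8 and 9 but not in 10 and 11, and B6 library 1 is blue for many genes.

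Within the Rag2-/-γc-/- group many chaperone transcripts stood at 2 levels, low in libraries 7, 8 and 9 and higher in 10 and 11. In 11 of the 34 genes, libraries 7, 8 and 9 were the 3 lowest of all 10, which was so for 16.5% of tested genes. These were Hyou1, Dnajb9, Dnajb11, Sdf2l1, Manf, Creld2, Calr, Pdia4, Derl2, Derl3 and Spcs2. In 4 genes, Eif2ak3, Atf6, Sel1l and Ssr1, the same libraries were the 3 highest (16.5% of tested genes). C57BL/6J library 1 was the lowest of all 10 libraries in 15 of the 34 genes, against 21.1% of tested genes, and the median of the 34 genes in it was 0.243 below their mean over libraries on the log2 scale. In the other C57BL/6J libraries this median was 0.085 to 0.216 above the mean.

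Some conventional dendritic cell markers moved with the same split. In 6 of the 11, Xcr1, Clec9a, Irf8, Batf3, Naaa and Flt3, libraries 7, 8 and 9 were the 3 lowest of 10. Wdfy4, Itgae, Zbtb46, Itgax and Cadm1 did not show this. Cadm1 was at 213, 271 and 248 CPM in libraries 7, 8 and 9 and at 233 and 192 CPM in 10 and 11. The summed list stood at 4825, 5614 and 5953 CPM in libraries 7, 8 and 9 and at 7315 and 6926 CPM in 10 and 11. Its largest parts were Wdfy4, Naaa and Irf8, with means over all libraries of 1946, 1816 and 1648 CPM. Itgae and Flt3 were called higher in C57BL/6J recipients. Of the 12 myeloid genes, 5 had libraries 7, 8 and 9 as the 3 highest. The part of other cells in the levels of the 34 genes was not tested.

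Without Rag2-/-γc-/- libraries 10 and 11, edgeR called 15 of the 34 genes higher and 3 lower, where it called 19.3% and 17.4% of 14461 tested genes. With libraries 7, 8 and 9 left out, a comparison of 5 libraries with 2, it called Mzb1 higher and no gene lower, against 1.01% and 0.87% of 14601 genes. Both subsets were chosen with earlier results of these data known. Of the Rag2-/-γc-/- libraries, 10 and 11 scored nearest to C57BL/6J on the first principal component, so more calls without them are built into that choice. Leaving out single libraries moved the count as well. Without library 10 there were 7 higher and 2 lower members (7.58% and 9.32% of genes), without library 11 there were 2 and 1 (4.33% and 5.99%), and without C57BL/6J library 1 there were 2 and 1 (3.68% and 4.44%). DESeq2 called 1 member higher and 2 lower (5.75% and 8.27% of genes). With limma-voom and sample quality weights the count was 19 higher and 4 lower, where 23.7% and 23% of genes were called.

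**Figure D2:**
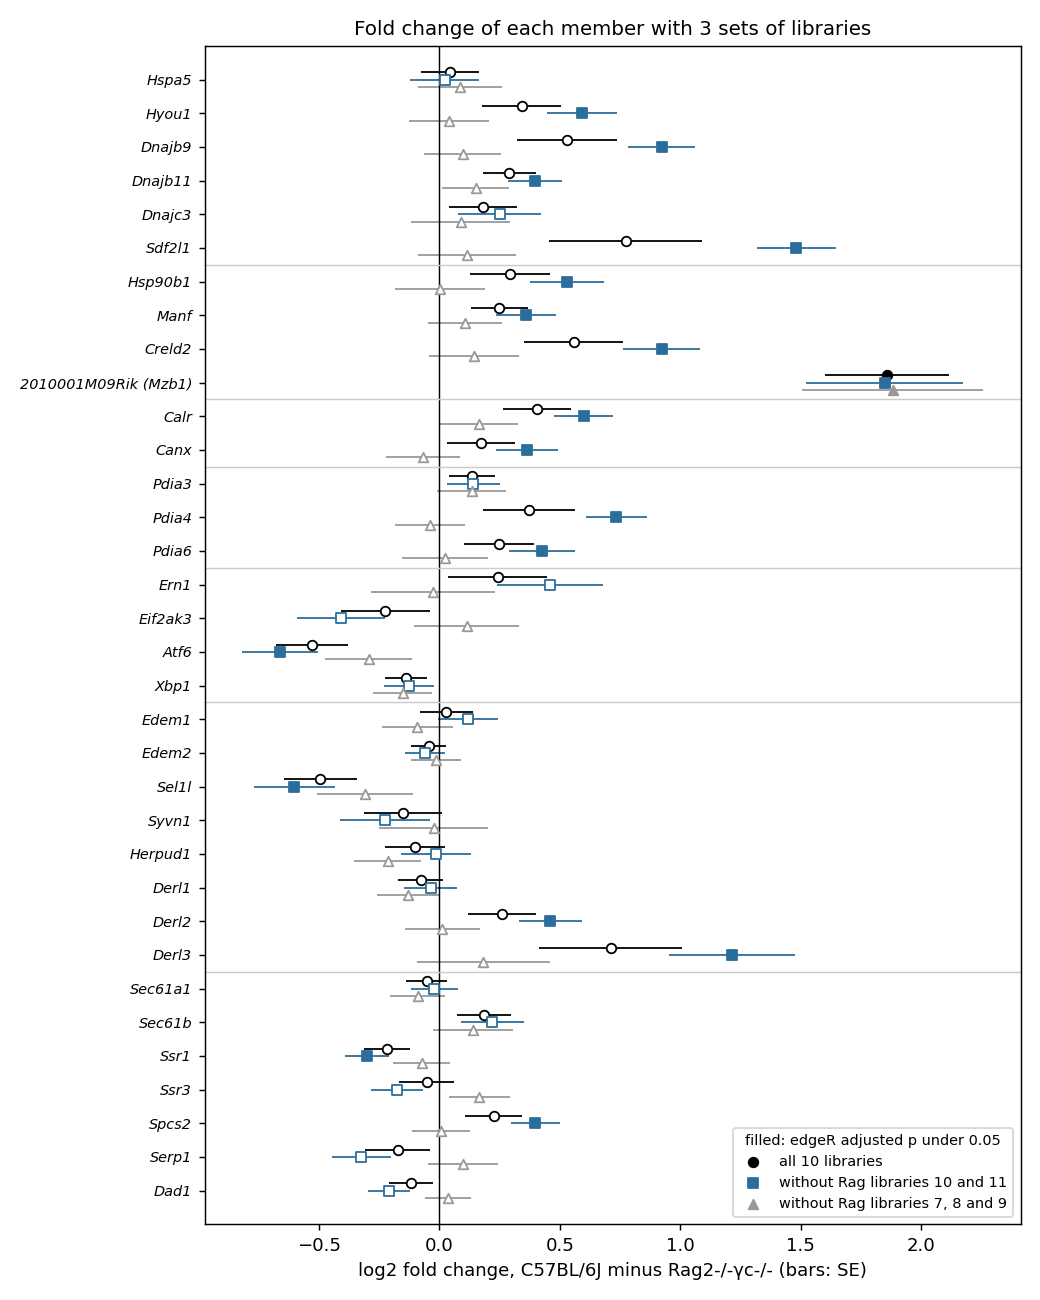
Log2 fold change of each gene, C57BL/6J minus Rag2-/-γc-/- (horizontal axis; bars: SE), with all 10 libraries, without Rag libraries 10 and 11, and without Rag libraries 7, 8 and 9. Filled symbols have an edgeR adjusted p under 0.05. Sdf2l1 moves from 0.77 to 1.48 without libraries 10 and 11 and to 0.12 without 7, 8 and 9, while Mzb1 stays between 1.85 and 1.88.

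BiP and its partners in the lumen were the largest chaperone group, with 6 genes, all with positive fold changes, none of them past the test (median 0.32 on the log2 scale). Without libraries 10 and 11, 4 of the 6 were called higher (median 0.50), and without libraries 7, 8 and 9 none was (median 0.09). Hspa5 itself, the gene of BiP (chromosome 2, 34771970 to 34776531, GRCm38, protein-coding, as are all 34 genes), was among the genes with the smallest fitted difference. Per library, in the order 1, 3, 4, 5 and 6, the C57BL/6J values were 1118, 1632, 1661, 1671 and 1731 CPM, and libraries 7 to 11 had 1667, 1447, 1512, 1573 and 1380 CPM. The lowest of the 10 was C57BL/6J library 1, the other 4 C57BL/6J libraries lay above 4 of the 5 Rag2-/-γc-/- libraries, and the groups overlapped. The log2 fold change was 0.04 ± 0.12 (SE; adjusted p = 0.835 in edgeR), and it ran from 0.006 to 0.145 over 17 alternatives, none of which gave a call. The highest of these was without C57BL/6J library 1 (edgeR adjusted p = 0.205).

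Sdf2l1 (chromosome 16, 17130138 to 17132383), a small lumenal protein that keeps BiP substrates in solution together with its J-protein partners, had the largest fitted difference of the 6. It stood at 210, 174, 195, 250 and 284 CPM in the C57BL/6J libraries and at 72.8, 80.4, 86.2, 235 and 177 CPM in Rag2-/-γc-/- libraries 7 to 11. Libraries 7, 8 and 9 were the 3 lowest by a wide margin, and libraries 10 and 11 lay inside the C57BL/6J range. With all libraries the log2 fold change was 0.77 ± 0.32 (SE; adjusted p = 0.155 in edgeR). It was 1.48 ± 0.16, a 2.79-fold difference, without libraries 10 and 11, a subset chosen with earlier results known. Over the 17 alternatives the adjusted p ran from 0.000308 (edgeR, that subset) to 0.9 (edgeR, without 7, 8 and 9).

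The J-proteins, which bring substrates to BiP and start its ATPase, had libraries 7, 8 and 9 as the lowest in the case of Dnajb9 and Dnajb11 but not of Dnajc3. Dnajb9 (ERdj4; chromosome 12, 44205897 to 44210068) had 26, 38.6, 34.3, 34.2 and 39 CPM against 18.2, 19.4, 16.9, 30.3 and 34.3 CPM. Only libraries 10 and 11 reached the C57BL/6J range. Its log2 fold change was 0.53 ± 0.21 (SE; adjusted p = 0.139 in edgeR) and 0.92 without those libraries, where it was called. Dnajb11 (ERdj3; chromosome 16, 22857845 to 22879634) had 161, 191, 186, 206 and 228 CPM against 151, 148, 145, 186 and 166 CPM. The difference was 0.29 ± 0.11 on the log2 scale (SE; adjusted p = 0.123 in edgeR). Dnajc3 (p58IPK), which also restrains PERK, was at 131 to 235 CPM in C57BL/6J and 166 to 192 CPM in Rag2-/-γc-/- libraries, and its lowest value was in C57BL/6J library 1. It was called higher without that library (log2 fold change 0.30; edgeR adjusted p = 0.0381; 0.0129 to 0.928 over the alternatives) but had 0.18 with all. Hyou1 (Grp170; chromosome 9, 44379490 to 44392369), an Hsp70 relative that exchanges the nucleotide of BiP, had 313, 457, 446, 495 and 469 CPM against 313, 267, 290, 422 and 429 CPM. C57BL/6J library 1 was level with Rag2-/-γc-/- library 7 there, and the log2 fold change of 0.34 ± 0.16 (SE; adjusted p = 0.213 in edgeR) was 0.59 without libraries 10 and 11 and 0.04 without 7, 8 and 9.

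**Figure D3:**
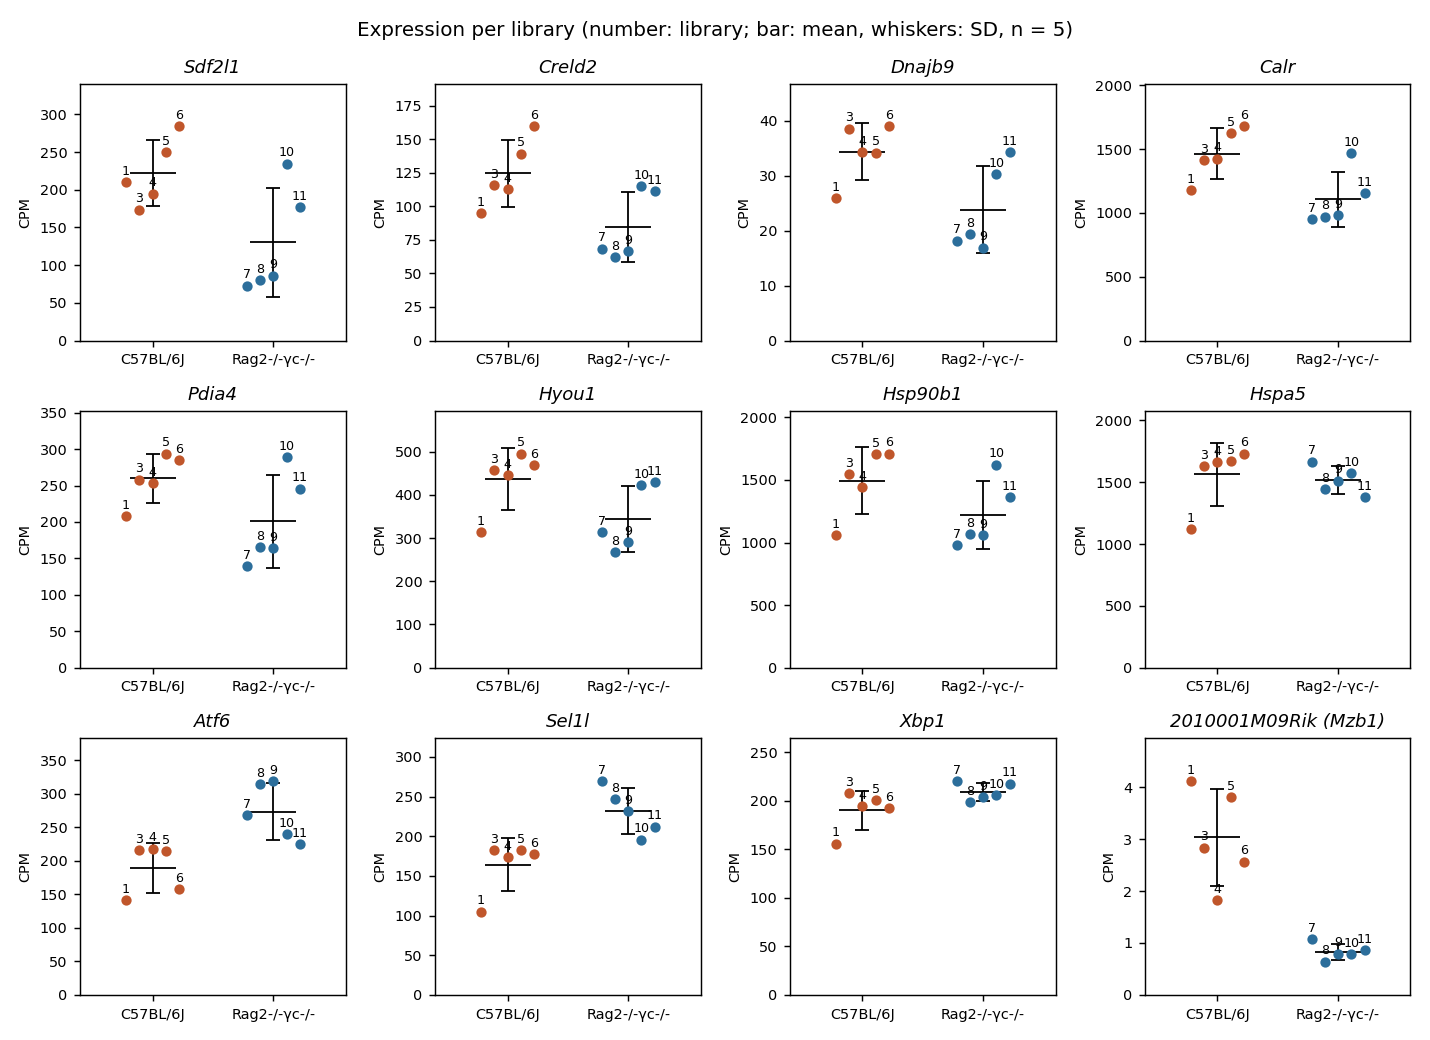
CPM per library for 12 genes of the set (points, numbered by library; bar: mean, whiskers: SD, n = 5 per group). In Sdf2l1, Creld2, Dnajb9, Pdia4 and Hyou1 the Rag2-/-γc-/- points fall into a low trio (7, 8 and 9) and a pair at the C57BL/6J level (10 and 11), whereas in Mzb1 all 5 lie below every C57BL/6J library and in Atf6 and Sel1l all 5 lie above.

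Among the other lumenal chaperones, Mzb1 was the gene that rose. Mzb1 (listed as 2010001M09Rik; chromosome 18, 35647266 to 35649367, minus strand) is a lumenal cofactor of Grp94 that is typical of plasma cells, marginal zone B cells and plasmacytoid dendritic cells, where it helps assemble immunoglobulin. It had 4.12, 2.84, 1.83, 3.81 and 2.57 CPM in the C57BL/6J libraries and 1.07, 0.639, 0.796, 0.784 and 0.86 CPM in Rag2-/-γc-/- libraries 7 to 11. The 2 groups did not overlap, and here libraries 10 and 11 sat with 7, 8 and 9. The means were 3.03 ± 0.935 and 0.829 ± 0.156 CPM (SD, n = 5 each), which rested on 72 to 175 counts per C57BL/6J library and 22 to 63 per Rag2-/-γc-/- library. The log2 fold change was 1.86 ± 0.26 (SE), or 3.63-fold, with an edgeR adjusted p of 0.00146. Mzb1 was called in all 17 alternatives, with log2 fold changes of 1.73 to 2.0 and adjusted p of 3.92e-09 to 0.0461, the last without libraries 7, 8 and 9. It was the only 1 of the 34 genes with all C57BL/6J values above all others, a pattern found in 4.13% of tested genes.

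B and plasma cell markers differed between the recipients in both directions. Of the 21 B and plasma cell markers, 20 were matched and 11 were tested, of which Cd79a, Igkc and Tnfrsf13c were higher and Cd22 and Irf4 lower. Tnfrsf13c was at 59.6 to 91.9 CPM in C57BL/6J and still at 37.3 to 50 CPM in Rag2-/-γc-/- libraries. Cd22 was at 6.89 to 30 CPM and 37.7 to 49.5 CPM. Summed, the list ranged from 436 to 738 CPM in C57BL/6J and from 434 to 551 CPM in Rag2-/-γc-/- libraries. Cd79a, a signalling chain of the B cell receptor, had 38.3, 3.70, 0.964, 0.5 and 5.01 CPM in the C57BL/6J libraries and 0.131 to 0.814 CPM in Rag2-/-γc-/- libraries. Igkc, the immunoglobulin kappa constant gene, had 24.8, 11.2, 1.22, 1.37 and 9.41 CPM and was at 0 in all 5 Rag2-/-γc-/- libraries, as were Cr2 and Vpreb3. C57BL/6J library 1, the richest in B cell markers, also had the highest Mzb1. Library 5, with the lowest Cd79a of its group (0.5 CPM), had the second highest Mzb1 at 3.81 CPM. The plasma cell genes Sdc1 and Tnfrsf17 were at or under 0.367 and 0.0473 CPM in all 10 libraries. Jchain (listed as Igj), which joins the units of secreted IgM and IgA, was at 1.24 to 3.68 CPM in C57BL/6J and 0.865 to 1.95 CPM in Rag2-/-γc-/- libraries (log2 fold change 0.71; edgeR adjusted p = 0.197). Without library 1 the log2 fold change of Mzb1 was 1.73 (edgeR adjusted p = 0.00303). The plasmacytoid dendritic cell list (13 markers) summed to 148 to 223 CPM in C57BL/6J and 174 to 248 CPM in Rag2-/-γc-/- libraries, with Siglech at or under 0.397 CPM and Klk1 at 0 in 9 of 10 libraries. Of its 7 tested genes, Lair1 and Runx2 were called higher and Tcf4 lower. The part of other cells in the Mzb1 difference was not tested. Rag2-/-γc-/- hosts have no B cells, so B cell RNA and recipient strain cannot be told apart in this comparison.

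**Figure D4:**
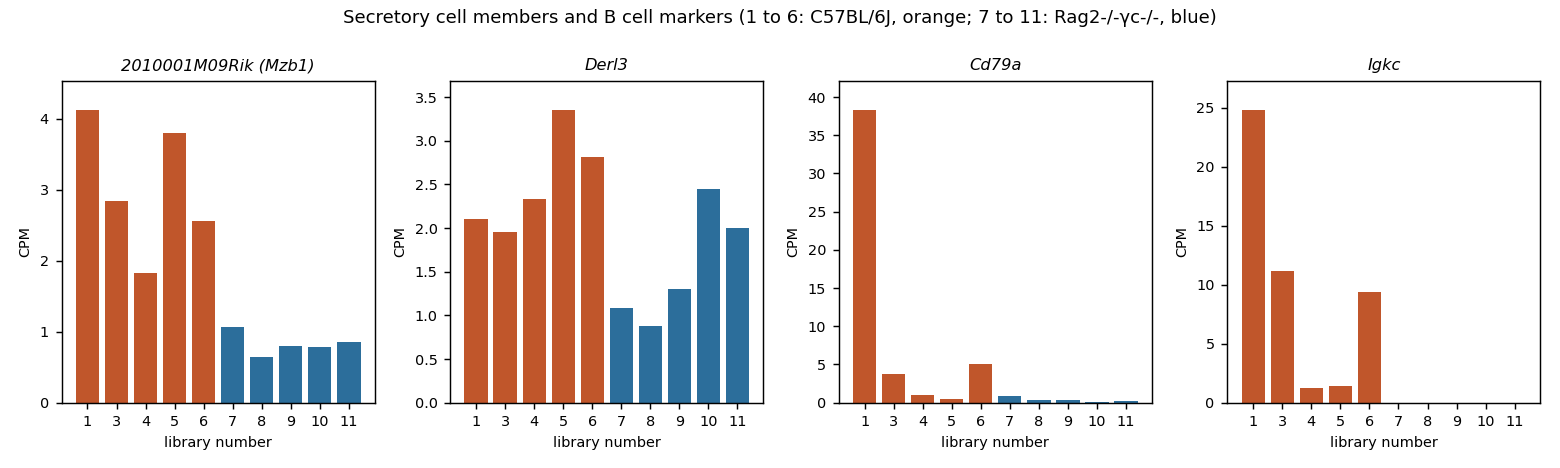
CPM per library (bars, linear axes from 0) of Mzb1, Derl3 and the B cell markers Cd79a and Igkc; orange bars are C57BL/6J libraries 1 to 6 and blue bars Rag2-/-γc-/- libraries 7 to 11. Cd79a and Igkc are highest in library 1, and Mzb1 is at 1.83 to 4.12 CPM in all 5 C57BL/6J libraries.

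The other 3 genes of this role were not called by edgeR with all libraries. Creld2 (chromosome 15, 88819646 to 88826681), a secreted ER stress protein with isomerase activity, had 94.8, 116, 113, 139 and 160 CPM in the C57BL/6J libraries and 68.4, 62, 66.9, 115 and 111 CPM in Rag2-/-γc-/- libraries. Libraries 10 and 11 again lay inside the C57BL/6J range, and the log2 fold change was 0.56 ± 0.21 (SE; adjusted p = 0.122 in edgeR) with all libraries and 0.92 without those 2. Hsp90b1 (Grp94; chromosome 10, 86690209 to 86705509), which folds integrins and Toll-like receptors, had 1060, 1545, 1444, 1707 and 1710 CPM against 979, 1068, 1062, 1623 and 1362 CPM. Its value in C57BL/6J library 1 lay with libraries 7, 8 and 9, and the log2 fold change was 0.29 ± 0.17 (SE; adjusted p = 0.283 in edgeR), 0.53 without libraries 10 and 11 and 0.004 without 7, 8 and 9. Manf, a secreted neurotrophic factor that binds BiP, was at 152 to 226 CPM against 137 to 183 CPM, with a log2 fold change of 0.25 (0.36, and called, without libraries 10 and 11).

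The lectin chaperones hold glycoproteins for folding, and calreticulin is also part of the complex that loads peptides onto MHC class I. Calr (chromosome 8, 84841850 to 84846934) had 1177, 1415, 1426, 1625 and 1678 CPM in the C57BL/6J libraries and 950, 971, 985, 1466 and 1157 CPM in libraries 7 to 11. Libraries 7, 8 and 9 were below all others, 11 was just under the lowest C57BL/6J value, and library 10 was inside the C57BL/6J range. The means were 1464 ± 199 and 1106 ± 218 CPM (SD, n = 5 each), and the fold change was 0.41 ± 0.14 on the log2 scale (SE; adjusted p = 0.103 in edgeR). Calr was called in 3 of 17 alternatives, at 0.53 without library 10, 0.60 without 10 and 11, and in limma-voom with quality weights, and it was at 0.16 without 7, 8 and 9. Canx, the membrane-bound relative, had 469 to 669 CPM against 419 to 668 CPM. Its log2 fold change was 0.17 with all libraries, 0.37 without 10 and 11, where it was called, and -0.07 without 7, 8 and 9.

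Of the 3 disulfide isomerases none was called by edgeR with all libraries. Pdia4 (ERp72; chromosome 6, 47796142 to 47813512) had 208, 258, 254, 294 and 285 CPM in the C57BL/6J libraries and 140, 165, 164, 289 and 246 CPM in Rag2-/-γc-/- libraries. The low values were again those of libraries 7, 8 and 9. Its log2 fold change was 0.37 ± 0.19 (SE; adjusted p = 0.24 in edgeR), 0.73 and called without libraries 10 and 11, and -0.04 without 7, 8 and 9. Pdia6, which also limits signalling by IRE1 and PERK, had 0.25 ± 0.15 (SE) with all libraries and 0.43, called, without 10 and 11. Pdia3 (ERp57), the partner of calreticulin and calnexin and a part of the MHC class I loading complex, was at 1075 to 1476 CPM against 1086 to 1284 CPM. Its log2 fold change stayed between 0.086 and 0.198 over the alternatives, with 1 call.

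Of the 4 sensors and regulators, 3 had negative fold changes and none was called by edgeR with all libraries. ATF6 is a membrane-bound transcription factor that is cleaved in the Golgi and then activates chaperone genes. Atf6 (chromosome 1, 170704457 to 170867771) had 141, 216, 218, 214 and 158 CPM in the C57BL/6J libraries and 268, 314, 319, 240 and 225 CPM in Rag2-/-γc-/- libraries 7 to 11. All 5 Rag2-/-γc-/- values were above all C57BL/6J values, with libraries 10 and 11 nearest to them. The log2 fold change was -0.53 ± 0.15 (SE), or 1.44-fold more in Rag2-/-γc-/- recipients, and missed the threshold with edgeR (adjusted p = 0.0551). It passed in 5 of 17 alternatives (adjusted p 0.0015 to 0.599), among them DESeq2 (0.0135), and its log2 fold change was -0.66 without libraries 10 and 11 and -0.29 without 7, 8 and 9. Atf6 and Sel1l were the 2 genes of the set with no overlap in this direction, a pattern of 4.37% of tested genes.

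The other sensor transcripts and Xbp1 overlapped between the groups. Ern1, the kinase and endonuclease that splices Xbp1 mRNA, had 20.7, 45.1, 43.3, 41.3 and 35.6 CPM against 24.9, 29.4, 27.2, 36.1 and 40.0 CPM. C57BL/6J library 1 was the lowest of the 10 here, and the log2 fold change was 0.24 ± 0.20 (SE; adjusted p = 0.466 in edgeR). For Eif2ak3, the PERK kinase that phosphorylates eIF2alpha, the values were 25.2, 46.6, 44.7, 44.8 and 45.1 CPM against 60.7, 51.8, 52, 38.0 and 38.5 CPM. Libraries 7, 8 and 9 were the highest and 10 and 11 under 4 of the 5 C57BL/6J libraries, and the sign of the fitted difference turned with them (-0.22 with all, 0.11 without 7, 8 and 9). Xbp1 (chromosome 11, 5520659 to 5525893) was among the steadier genes, with 156 to 208 CPM against 199 to 221 CPM and a log2 fold change (± SE) of -0.14 ± 0.09 (edgeR adjusted p = 0.335). The table gives gene totals, so the spliced form of Xbp1 was not analysed here.

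ERAD genes were split. Sel1l (chromosome 12, 91806043 to 91849157), the scaffold of the ubiquitin ligase Hrd1, had 105, 183, 174, 182 and 178 CPM in the C57BL/6J libraries and 270, 247, 232, 196 and 212 CPM in Rag2-/-γc-/- libraries. The groups did not overlap, and the widest gap within a group was between C57BL/6J library 1 and the other 4. Its log2 fold change was -0.49 ± 0.15 (SE), 1.41-fold more in Rag2-/-γc-/- recipients, with an edgeR adjusted p of 0.0731. It was called in 5 of 17 alternatives (adjusted p 0.00184 to 0.622), DESeq2 among them (0.0249), and stood at -0.37 without C57BL/6J library 1 and -0.31 without libraries 7, 8 and 9. Syvn1, which encodes Hrd1 itself, had 46.9 to 90.4 CPM against 74.2 to 99.5 CPM and a log2 fold change of -0.15 ± 0.16 (SE).

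Derl3, a derlin of secretory cells, had 2.11, 1.95, 2.33, 3.35 and 2.82 CPM against 1.08, 0.876, 1.30, 2.45 and 2.0 CPM. Libraries 10 and 11 lay within the C57BL/6J range and 7, 8 and 9 under it. Derl3 is scarce, with 36 to 154 counts per library, and its log2 fold change was 0.71 ± 0.30 (SE; adjusted p = 0.161 in edgeR), 1.22 and called without libraries 10 and 11, and 0.18 without 7, 8 and 9. Derl2 had 0.26 with all libraries and 0.46, called, without 10 and 11. Derl1, Edem1, Edem2 and Herpud1, a derlin, 2 genes of the mannose trimming of misfolded glycoproteins and a ligase cofactor, had log2 fold changes of -0.08, 0.03, -0.04 and -0.10, with overlapping groups. Edem2 was the steadiest of them, at 77.2 to 91.1 CPM against 84.5 to 90.7 CPM.

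All 7 genes of protein entry and first processing overlapped between the groups. Sec61a1 and Sec61b, subunits of the channel, had log2 fold changes of -0.05 ± 0.08 and 0.18 ± 0.11 (SE), with Sec61b highest in C57BL/6J library 1 at 118 CPM, against 75.4 to 93.4 CPM elsewhere. Ssr1, of the translocon-associated TRAP complex, had 233, 286, 279, 277 and 292 CPM against 331, 340, 342, 309 and 268 CPM. Its log2 fold change was -0.22 ± 0.09 (SE; adjusted p = 0.173 in edgeR), and -0.30, called lower, without libraries 10 and 11. Its partner Ssr3 had -0.05 ± 0.11 (SE). Spcs2, of the signal peptidase, had 0.23 with all libraries and 0.40, called, without 10 and 11, and 0.006 without 7, 8 and 9. Serp1, which stabilises membrane proteins at the translocon, and Dad1, a subunit of the oligosaccharyltransferase, had -0.17 ± 0.13 and -0.12 ± 0.09 (SE).

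Compared per length, the 4 most abundant genes of the set were lumenal folding factors. As means of all 10 libraries in CPM per kilobase of annotated exon, Calr stood at 446, Pdia3 at 395, Hspa5 at 364 and Hsp90b1 at 336, followed by Sdf2l1 at 159. Group means of Calr and Hspa5 on this scale were 508 and 370 in C57BL/6J and 384 and 358 in Rag2-/-γc-/- recipients. The scarcest were Ern1 at 4.2, Mzb1 at 1.59 and Derl3 at 1.02, so the 1 gene that was called stood near the bottom of the range. Counting by strand is not stated in the sources used here, and Hsp90b1, Manf, Syvn1, Derl2 and Serp1 overlap other genes with more than 10 CPM.

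Of the 49 genes of the promoter table with an ERSE or ERSE-II, 11 of them members, 25 were tested and none was called by edgeR (5 on the higher and 1 on the lower side had an unadjusted p under 0.05). The fitted difference was positive in 19 of them, with a median log2 fold change of 0.15, against 7047 of 13966 tested genes and a median of 0.004, and the 14 tested genes that are not members had a median of 0.11. The difference from the other genes was not tested. Among members with the element, Derl3 (0.71), Creld2 (0.56), Calr (0.41), Hsp90b1 (0.29), Dnajb11 (0.29), Pdia6 (0.25), Dnajc3 (0.18), Canx (0.17) and Hspa5 (0.04) had positive values. Herpud1 (-0.10) and Syvn1 (-0.15) had negative ones. Members with no match in these windows ranged from Sel1l (-0.49) to Dnajb9 (0.53) and Sdf2l1 (0.77).

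Other ER genes, from 6 lists with 201 tested genes, had no common direction: 2 were higher, 4 lower, and the median log2 fold change was -0.04. The 47 other folding enzymes included 2 lower ones, the thioredoxin-related Tmx4 (-0.83 on the log2 scale; edgeR adjusted p = 0.041) and the prolyl isomerase gene Fkbp7 (-1.58; adjusted p = 0.0461). Tmx4 was at 14.4 to 20.2 CPM in C57BL/6J and 20.1 to 43.3 CPM in Rag2-/-γc-/- libraries, so the groups overlapped. None of 37 other ERAD genes was called by edgeR (1 on the higher and 3 on the lower side had an unadjusted p under 0.05). Among 49 genes of translocation and glycosylation, Gmppa, which acts in the supply of GDP-mannose, was higher (0.41; edgeR adjusted p = 0.0221). Of 34 genes of ER to Golgi transport, Sec24d, a cargo subunit of the COPII coat, was higher at 51 to 61.4 against 34.3 to 40.8 CPM (0.56 ± 0.09 (SE); edgeR adjusted p = 0.00428). In the list of 21 genes around IRE1 and ATF6, Creb3l1, an ATF6 relative, was lower at 0.403 to 1.06 against 1.47 to 2.92 CPM (-1.55; edgeR adjusted p = 0.00914), and so was the kinase gene Map3k5 (-0.40; adjusted p = 0.0434).

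No gene of the PERK branch was called by edgeR among 13 tested, and 1 in each direction had an unadjusted p under 0.05. The log2 fold changes of its transcription factors were 0.15 for Atf4 (edgeR adjusted p = 0.448) and 0.19 for Ddit3, the gene of CHOP (adjusted p = 0.554). The phosphatase subunits that end the response, Ppp1r15a and Ppp1r15b, had -0.04 and -0.23, and the targets Trib3 and Chac1 -0.13 and -0.32. Of 2 compartments outside the ER, the cytosolic heat shock list (32 genes) had a median of 0.20 and the mitochondrial chaperone list (12 genes) 0.14, with no edgeR call in either and, at an unadjusted p under 0.05, 5 higher and 1 lower in the first and 1 higher in the second. Libraries 7, 8 and 9 were the 3 lowest of 10 in 21 of the 32 heat shock genes and in 6 of the 12 mitochondrial ones, beside the 16.5% of all tested genes given above. Without libraries 10 and 11, 19 of the 32 heat shock genes were called higher and 2 lower, and without 7, 8 and 9 there were 0 higher and 1 lower, with a median of -0.04. C57BL/6J library 1, in contrast, was the highest of 10 in 15 heat shock genes, as it was in 20.1% of tested genes.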

How the data were processed

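Per the labels' protocols, libraries of poly(A) RNA from GFP+ spleen cells were read from 1 end on a NextSeq. The authors deposited expected counts per Ensembl gene for 10 libraries; cutadapt 1.11, STAR 2.5.2a, RSEM 1.2.30, edgeR and build GRCm38 are named, per the submitters' processing notes. For strand setting and annotation release the sources used here give nothing. Such expected counts divide reads between similar genes; they were rounded to whole numbers (15.3 to 17.3% of a library's values were not whole).

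Columns were matched to samples by title. edgeR 4.0.16 (R 4.3.3; TMM, filterByExpr with minimum count 10 and total 15, group term alone, quasi-likelihood test) was run on all genes with Benjamini-Hochberg adjustment over 13966 genes and a threshold of 0.05, and was tested on simulated data first. Fold changes are log2, C57BL/6J minus Rag2-/-γc-/-, computed from the deposited expected counts; CPM are TMM-scaled. Standard errors were derived from the coefficient and its F statistic. Exon lengths came from GENCODE M21, which holds 95.1% of the identifiers, and promoters from RefSeq GRCm38.p6. All within-group pairs differed by more than counting noise (chi-square per degree of freedom, 8.64 to 207).

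Members, gene lists and marker lists were chosen with earlier results of these data known. All members were named; of each other list, up to 4 genes past the threshold with the smallest adjusted p, and Atf4, Ddit3, Ppp1r15a, Ppp1r15b, Trib3 and Chac1 in any case. Alternatives were RLE size factors, DESeq2 1.42.0, limma-voom 3.58.1 with sample quality weights, no count filter, a filter of 1 CPM in 5 libraries, leaving out each library, and leaving out libraries 10 and 11 or 7, 8 and 9. No batch is given, so none was fitted. One marker gene of the lists is not reported here.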

Additional observations from a re-analysis of the deposited data

Results flagged for a closer look

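In 9 of 68 groups of 5 values (34 genes, both recipient strains) 1 library lay far from the other 4 by Dixon's ratio (above 0.71). Chance gives about 1 in 20 for independent groups, but these groups share the same libraries and are not independent. The ratio was not computed for the other tested genes. Among all tested genes, C57BL/6J library 1 was the lowest of 10 in 21.1% and the highest in 20.1%. All 9 were low values of C57BL/6J library 1: Hspa5 at 1118 CPM (1632 to 1731 in the other 4), Hyou1 at 313 (446 to 495), Eif2ak3 at 25.2 (44.7 to 46.6) and Edem1 at 177 CPM (240 to 254). Sel1l stood at 105 CPM (174 to 183), its ligase partner Syvn1 at 46.9 (81.9 to 90.4) and Derl1 at 139 CPM (177 to 191). The translocon genes Ssr1 and Ssr3 were at 233 CPM (277 to 292) and 236 CPM (300 to 318). The same library had the lowest mitochondrial share, 1.34%, and the highest summed T cell markers, 61.3 CPM. Their part in these values was not tested.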

How the results depend on the processing

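Mzb1 kept its direction and its call in all 17 alternatives, and no other member was called by edgeR with all libraries. Over the 34 genes, 53 fitted results passed the threshold under an alternative without doing so in the reported test, 511 kept both direction and side, and 14 changed sign. Members called higher numbered 19 with limma-voom and quality weights and 15 without libraries 10 and 11; members called lower numbered 2, 4 and 3 with DESeq2, limma-voom and without libraries 10 and 11. Leaving out 1 library gave 1 to 7 higher and 0 to 2 lower members, and 275 to 1076 higher and 304 to 1323 lower genes. All genes called higher and lower were 803 and 1155 with DESeq2, 3306 and 3217 with limma-voom, 2786 and 2518 without libraries 10 and 11, and 148 and 127 without 7, 8 and 9. The cause was not tested.

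Signs turned without libraries 7, 8 and 9 for Canx (-0.069), Pdia4 (-0.038), Ern1 (-0.027), Edem1 (-0.092), Eif2ak3 (0.114), Ssr3 (0.166), Serp1 (0.098) and Dad1 (0.037), and with limma-voom for Herpud1 (0.106), Derl1 (0.002) and Sec61a1 (0.04). With 1 library left out, Edem1 ranged from -0.004 to 0.116, Sec61a1 from -0.09 to 0.003 and Ssr3 from -0.107 to 0.017. The median log2 fold change of the 34 genes ran from 0.03 to 0.235 (0.18 as reported). Each library's median deviation of the 34 genes had a pooled within-group SD of 0.159, which is not the error of that fold change. No paired analysis was possible because the labels do not say which recipients, if any, shared a primary leukaemia. Mzb1 and Derl3 rest on at most 175 and 154 counts in a library, which limits their precision.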

Other observations

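With libraries 10 and 11 left out, the lists of other ER genes moved unequally, to be read beside 19.3% of genes called higher and 17.4% called lower. Of 49 other translocation and glycosylation genes, 15 were called higher and 6 lower, of 37 other ERAD genes 1 and 10, and of 47 other folding enzymes 4 and 10. The PERK branch had 4 higher and 2 lower of 13, ER to Golgi transport 3 and 5 of 34, the genes around IRE1 and ATF6 3 and 5 of 21, and the mitochondrial chaperones 6 higher and none lower of 12. Without libraries 7, 8 and 9 none of these genes was called. The differences between lists were not tested.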
